A study of Mus musculus with 19 samples.

Results

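Lineage-negative cells of mouse hindlimb muscle were compared, as an unsplit parent population, with the fractions obtained by dividing such cells on the surface protein Sca1. The comparison takes 11 of the 19 libraries of the series, chosen by their titles. LinNeg, the parent, has 4 libraries, LinNegSca1Pos, the Sca1+ fraction that the labels call mesenchymal progenitors, has 3, and LinNegSca1Neg, the Sca1- fraction, has 4. All mice were C57BL/6J and all groups received the same treatment, 2.5 mg of tamoxifen on each of 5 days from 8 weeks of age, with a washout of 10 days. The labels name no allele on which tamoxifen would act. Cells were purified by flow cytometry and stranded poly(A) libraries were sequenced. Whether the replicates are different animals is not stated in the labels, and each p value below therefore reflects just the variation among the sequenced libraries, part of which could be technical. Nor do they say whether a parent library and its fractions were sorted from the same cells.

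Sca1, encoded by Ly6a, is a lipid-anchored surface protein carried in muscle by fibro-adipogenic (mesenchymal) progenitors, the stromal cells that make collagen and can turn into fat cells. Lineage-negative cells that lack it include satellite cells, the stem cells of the muscle fibre, together with pericytes, smooth muscle cells, tenocytes and the Schwann cells of nerves. On a linear scale the RNA of a mixture lies between that of its parts. For each gene the question was therefore whether the mean of the parent, in FPKM (a fragment count scaled to transcript length and sequencing depth), lay between, above or below the means of both fractions.

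Across the 11 libraries 11274 to 12517 genes reached 1 FPKM, and Spearman's rho between replicates was 0.923 to 0.978. Sequencing depth is unknown. The FPKM value of 1 fragment, read from genes at the lowest values, was 1.17 to 2.15 times that of the deepest library of the series in 10 libraries and 4.13 times in LinNegSca1Pos replicate 3, the shallowest. The endothelial gate gene Pecam1 was low, at 5.24 ± 1.39 FPKM in LinNeg (SD, n = 4), 3.75 ± 2.81 in LinNegSca1Pos (n = 3) and 9.93 ± 4.25 in LinNegSca1Neg (n = 4). The leukocyte gene Ptprc stood at 1.38 ± 1.19, 0.423 ± 0.472 and 3.61 ± 1.18 FPKM in these groups, and was lower in the parent than in LinNegSca1Neg (log2 difference -1.03, limma adjusted p = 0.0148), a call lost in 4 of 26 alternatives, without LinNeg replicate 2 (limma adjusted p = 0.0521) or 4 (0.0531) among them. Of the summed FPKM, 0.603% to 3.19% fell on myofibre genes in the parent libraries, beside 0.0175% to 0.0894% in the Sca1+ and 1.08% to 7.81% in the Sca1- libraries.

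Ly6a itself (chromosome 15, 74994877 to 74998031, mm10) placed the parent near its Sca1+ fraction. It was at 1069, 1479, 1338 and 1088 FPKM in LinNeg, at 1847, 1470 and 1978 in LinNegSca1Pos and at 35.8, 50.4, 65.3 and 55.3 in LinNegSca1Neg. LinNeg replicate 2 fell within the range of the Sca1+ libraries and all LinNeg libraries were far above the Sca1- libraries. Because the fractions were sorted on the protein that Ly6a encodes, a parent above LinNegSca1Neg follows from the gate and is no independent finding. The parent was higher than LinNegSca1Neg by 4.58 ± 0.23 on the log2 scale (SE, limma adjusted p = 7.5e-11), and the difference from LinNegSca1Pos, -0.51 ± 0.24, did not pass the test (limma adjusted p = 0.12). A position can be read from the means, 0 at the Sca1- mean and 100 at the Sca1+ mean, and for Ly6a it was 69.6%. In bulk samples fewer cells of a type and less RNA per cell cannot be told apart, so a position is not a share of cells. A share of RNA would be alike for all genes and lie between 0% and 100%. For 529 genes called at least 4-fold higher in LinNegSca1Pos, at 10 FPKM or more, the median position was 41.7%, and 59 exceeded 100%. For 521 such genes higher in LinNegSca1Neg the median was 67.1%. A position thus describes a gene and does not measure a share of RNA.

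Among the 14043 genes tested the mean of the parent lay between the fractions for 8745 (62.3%), above both for 1595 (11.4%) and below both for 3703 (26.4%). In the 6383 genes not called apart between the fractions the parent was between for 2313 (36.2%), above for 1130 (17.7%) and below for 2940 (46.1%). Means of 3 groups alike in level would also often put the parent outside the fractions. These classes use FPKM as deposited. There the median log2 difference of the parent from LinNegSca1Neg over all tested genes was -0.17, and -0.07 after median-of-ratios scaling. Called apart were 7660 genes (54.5% of those tested), 3146 higher (22.4%) and 4514 lower (32.1%) in LinNegSca1Pos, and the parent was between for 6432 of them (84.0%). Of the 2230 genes that were called apart and differed at least 4-fold, 2096 (94.0%) had the parent between, 111 (4.98%) above and 23 (1.03%) below. The shares differed with the direction of the difference. Genes at least 4-fold higher in LinNegSca1Neg had the parent between in 1414 of 1423 cases (99.4%), with 3 above and 6 below. Genes at least 4-fold higher in LinNegSca1Pos had it between in 682 of 807 cases (84.5%), with 108 (13.4%) above and 17 (2.11%) below.

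Tests of the parent against each fraction share the LinNeg libraries, so their results are given side by side. Against LinNegSca1Pos, 2407 genes were higher in the parent (17.1% of those tested) and 2233 lower (15.9%), together 33.0%. Against LinNegSca1Neg, 1308 were higher (9.31%) and 2324 lower (16.5%), together 25.9%. The median log2 difference of all tested genes was 0.03 against LinNegSca1Pos and -0.17 against LinNegSca1Neg. Median-of-ratios scaling moved the latter to -0.07 and its calls to 1537 higher and 1550 lower, quantile normalization gave 1674 higher and 1676 lower, and the removal of a trend with base composition described below gave 1550 higher and 1810 lower. Requiring both tests at a limma adjusted p under 0.05, the parent was above both fractions for 70 genes (0.498%) and below both for 75 (0.534%). It was between them for 385 genes higher in LinNegSca1Pos (2.74%) and 1184 genes higher in LinNegSca1Neg (8.43%), together 11.2%.

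**Figure D1:**
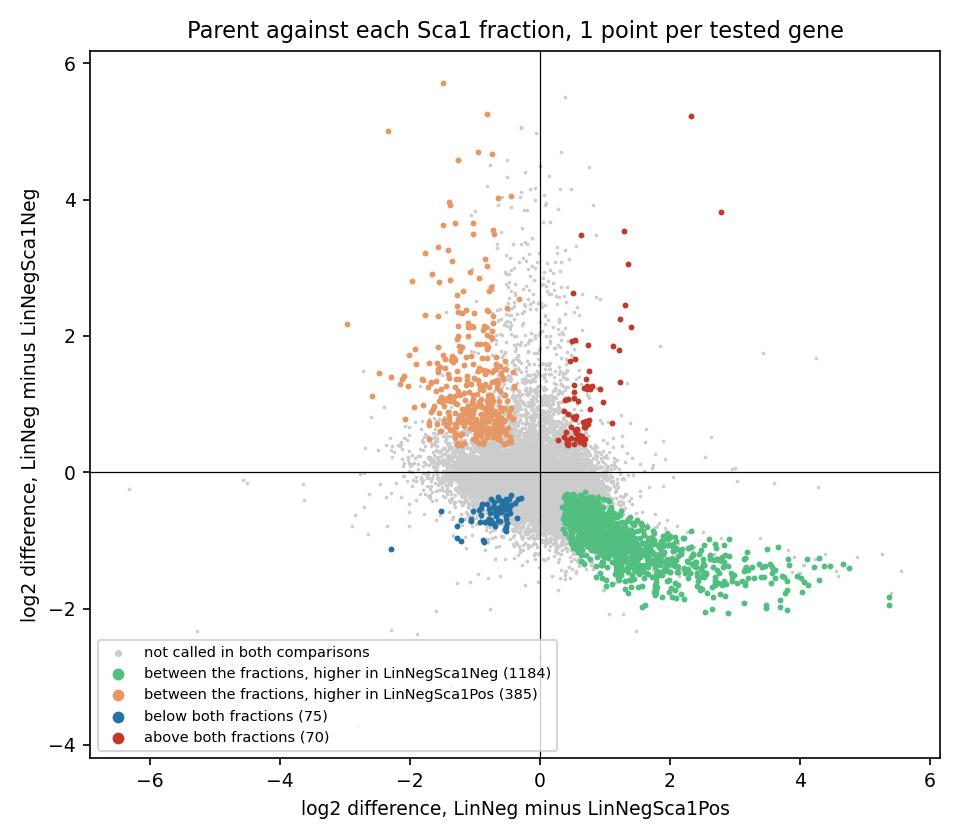
Log2 difference of LinNeg from LinNegSca1Pos (horizontal) and from LinNegSca1Neg (vertical), 1 point per tested gene, coloured where both tests called it. Genes higher in LinNegSca1Neg (1184) form a narrow curved band, genes higher in LinNegSca1Pos (385) spread widely, and the 70 genes above both and 75 below both lie mostly close to 0.

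Where the parent lay between its fractions depended on the fraction in which a gene was high. For 521 genes called apart, at least 4-fold higher in LinNegSca1Neg and at 10 FPKM or more there, the position of the parent had a median of 67.1%, quartiles of 61.8% and 71.2%, and a 5th to 95th percentile range of 52.3% to 77.7%. Between 50% and 80% lay 488 of them (93.7%). The 4 LinNeg libraries, each set against the same fraction means, gave medians of 73.8%, 67.2%, 67.7% and 65.0%. For 529 genes chosen the same way but higher in LinNegSca1Pos the median was 41.7%, the quartiles were 21.1% and 69.6%, and the 5th to 95th percentile range was 6.54% to 121%. Only 116 of these (21.9%) lay between 50% and 80%, and in 59 the parent exceeded the Sca1+ mean. The medians of single LinNeg libraries were 44.2%, 50.1%, 37.2% and 27.4%, a mean of 39.7% ± 9.77 (SD, n = 4). All 4 libraries placed the first set nearer to LinNegSca1Pos than they placed the second. A gene that is almost silent in 1 fraction has a position set by the parent and the other fraction alone, so the first set rests on LinNeg against LinNegSca1Neg and the second on LinNeg against LinNegSca1Pos. Asking for a 2-fold or an 8-fold difference instead gave a median of 26.5% or 53.4% for the second set.

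**Figure D2:**
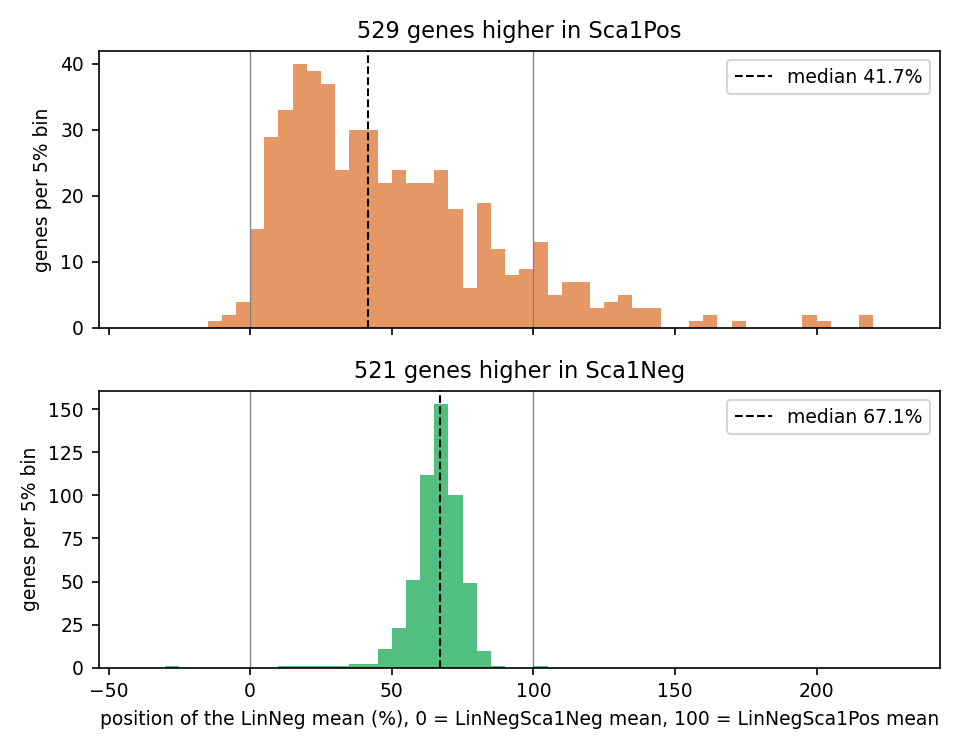
Number of genes (vertical, bins of 5%) by the position of the LinNeg mean (horizontal, %, 0 at the LinNegSca1Neg mean and 100 at the LinNegSca1Pos mean). The 529 genes higher in LinNegSca1Pos (top) spread around a median of 41.7%, and the 521 genes higher in LinNegSca1Neg (bottom) form a single peak around 67.1%.

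In the set higher in LinNegSca1Pos, positions followed the base composition of the transcripts. GC content, the share of G and C in the longest GENCODE M21 transcript of a symbol, was known for 508 of the 529 genes (96.0%), and Spearman's rho between GC content and position was -0.658 across them. Genes are not independent replicates, so this is a description. The median position was 72.9% in the 170 genes with the lowest GC content (34.4% to 51.5%), 40.6% in the 169 in the middle and 21.2% in the 169 with the highest (56.5% to 67.1%). The set higher in LinNegSca1Neg, divided into 3 classes of its own, had medians of 66.9%, 67.3% and 67.3% from low to high GC content and a rho of 0.0853 over 500 genes. Across 13197 tested genes with a GC content (94.0%) the log2 difference of LinNeg from LinNegSca1Pos had a rho of -0.508 with GC content, that from LinNegSca1Neg 0.110, and that of LinNegSca1Pos from LinNegSca1Neg 0.392. Library by library, the deviation from the mean of the 11 libraries had a rho with GC content of 0.360 to 0.465 in LinNegSca1Pos, -0.348 to -0.0445 in LinNeg and -0.284 to -0.164 in LinNegSca1Neg. All 3 Sca1+ libraries were thus positive and all LinNeg and LinNegSca1Neg libraries negative. Because the mean is that of the same 11 libraries, positive values in the Sca1+ group push the others towards negative ones. The signs of the groups are therefore not independent.

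**Figure D3:**
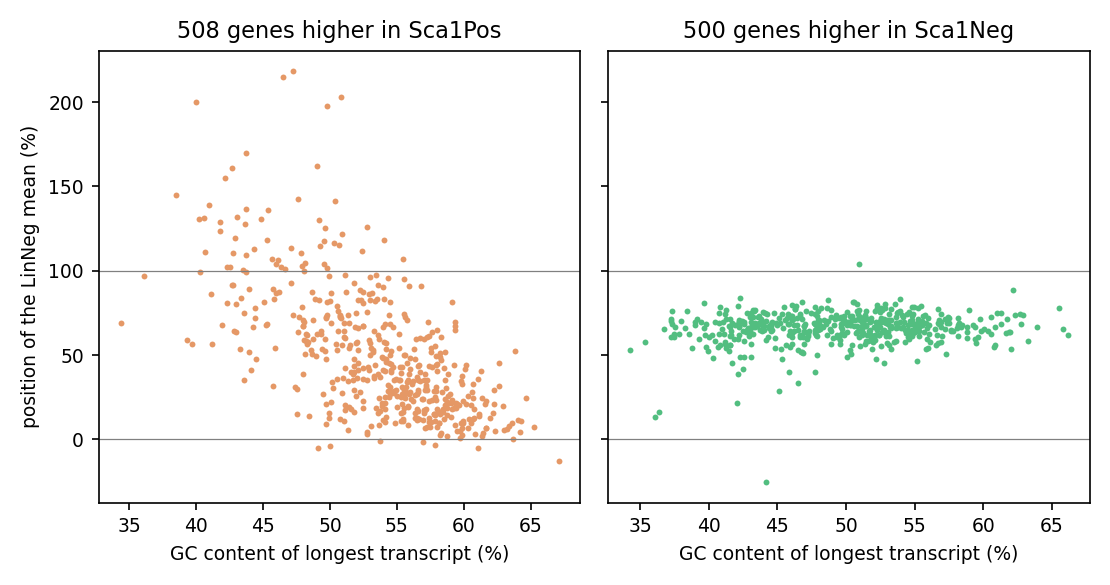
Position of the LinNeg mean (vertical, %) against GC content of the longest transcript (horizontal, %), 1 point per gene. The 508 genes higher in LinNegSca1Pos (left) fall from a median of 72.9% at low to 21.2% at high GC content, and the 500 genes higher in LinNegSca1Neg (right) stay near 67.1% throughout.

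An alternative chosen after seeing the data removed from each library its trend with GC content and transcript length. On the same genes the median position then became 50.2% in the set higher in LinNegSca1Pos (508 genes, quartiles 29.3% and 75.1%) and 64.7% in the other set (500 genes), and a rho of -0.469 with GC content remained in the former. With the trend removed 17 genes were above both fractions, 12 of them among the 70, and 24 below both, 19 of them among the 75. Genes above both had a median GC content of 44.4% and a median transcript length of 5290 bases, genes below both 54.7% and 2347 bases, and all tested genes 49.7% and 3303 bases. The part of library preparation and of cell biology in the trend was not tested.

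Markers of the same progenitors lay at opposite ends of this range. The middle 120 bases of the coding sequence are shown for the mesenchymal and adventitial progenitor markers with the 2 lowest positions (Clec3b, 21.04%, and Hic1, 24.7%) and the 2 highest (Dpp4, 155%, and Sema3c, 161%), to let their base composition be compared. They come from the GENCODE M21 transcripts (GRCm38), are written 5′ to 3′, and capitals mark G and C, which make up 64.2%, 70.0%, 40.8% and 52.5% of the 4 stretches in that order.
Clec3b: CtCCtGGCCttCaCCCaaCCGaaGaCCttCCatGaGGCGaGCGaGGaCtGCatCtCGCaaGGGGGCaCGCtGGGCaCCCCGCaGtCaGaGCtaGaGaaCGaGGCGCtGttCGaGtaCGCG
Hic1: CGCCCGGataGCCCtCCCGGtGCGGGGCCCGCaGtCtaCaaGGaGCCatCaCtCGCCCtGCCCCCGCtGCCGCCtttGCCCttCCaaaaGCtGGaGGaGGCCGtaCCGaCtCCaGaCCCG
Dpp4: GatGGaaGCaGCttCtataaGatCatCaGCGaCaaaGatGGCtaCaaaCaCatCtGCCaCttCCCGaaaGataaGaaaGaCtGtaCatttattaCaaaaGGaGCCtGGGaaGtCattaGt
Sema3c: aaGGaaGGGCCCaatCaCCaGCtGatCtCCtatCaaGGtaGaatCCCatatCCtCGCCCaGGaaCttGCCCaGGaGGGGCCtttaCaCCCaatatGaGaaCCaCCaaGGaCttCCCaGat
Over whole transcripts the GC content was 60.2% for Clec3b, 64.7% for Hic1, 42.2% for Dpp4 and 42.7% for Sema3c.

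Mesenchymal and adventitial progenitor genes were higher in the parent than in LinNegSca1Neg, and their place relative to LinNegSca1Pos varied from gene to gene. Of 11 tested mesenchymal markers 10 were higher than in LinNegSca1Neg and none lower (median log2 difference 2.17), and 3 were lower than in LinNegSca1Pos and none higher (median -0.52). Of 13 adventitial markers, genes of the progenitors around vessels and in fascia, all 13 were higher than in LinNegSca1Neg (median 3.96), 7 were lower and 1 higher than in LinNegSca1Pos (median -0.74). Summed over the adventitial list, the level was 2016 to 2936 FPKM in LinNeg, 4847 to 6847 in LinNegSca1Pos and 149 to 196 in LinNegSca1Neg. Beside the counts of both lists, 9.31% of all tested genes were higher than in LinNegSca1Neg. Against LinNegSca1Pos 15.9% were lower and 17.1% higher.

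Clec3b, which encodes the plasminogen-binding protein tetranectin, was at 576, 632, 326 and 187 FPKM in LinNeg, 1478, 2171 and 2358 in LinNegSca1Pos and 12.3, 14.8, 8.02 and 10.2 in LinNegSca1Neg. The 3 groups did not overlap. The parent was lower than LinNegSca1Pos by -2.34 ± 0.43 on the log2 scale (SE, limma adjusted p = 6.0e-04) and higher than LinNegSca1Neg by 5.01 ± 0.40 (limma adjusted p = 4.0e-08). Pi16, a secreted peptidase inhibitor, had a position of 35.9%, Cd248, the stromal receptor endosialin, of 40.5%, Has1, a hyaluronan synthase, of 50.5% and Emilin2, an elastic fibre glycoprotein, of 59.5%. All 4 were called between, without overlap of the groups. With the trend removed Emilin2 no longer passed against LinNegSca1Pos (log2 difference -0.42, limma adjusted p = 0.0828).

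Hic1 (chromosome 11, 75164565 to 75170255, mm10), a transcriptional repressor gene of mesenchymal progenitors, was at 6.10, 6.86, 5.76 and 3.63 FPKM in LinNeg, 12.8, 25.2 and 18.2 in LinNegSca1Pos and 1.30, 0.997, 1.32 and 1.45 in LinNegSca1Neg. Each LinNeg library lay between the groups, which did not overlap. Its log2 differences were -1.56 ± 0.21 from LinNegSca1Pos (limma adjusted p = 4.3e-05) and 1.52 ± 0.20 from LinNegSca1Neg (limma adjusted p = 1.7e-05), and its position of 24.7% became 42.2% with the trend removed. Gsn, the actin-severing protein gelsolin, was at 6046 ± 2055 FPKM in LinNeg, 15085 ± 2723 in LinNegSca1Pos and 378 ± 36.7 in LinNegSca1Neg, a position of 38.5% at a GC content of 57.1%.

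Pdgfra (chromosome 5, 75152291 to 75198204, mm10), the PDGF receptor gene that defines fibro-adipogenic progenitors, was at 132, 118, 85.9 and 84.2 FPKM in LinNeg, 116, 102 and 84.4 in LinNegSca1Pos and 7.15, 6.88, 6.83 and 7.93 in LinNegSca1Neg. The parent libraries overlapped the Sca1+ libraries and stood far above the Sca1- libraries. The log2 difference from LinNegSca1Pos was 0.04 ± 0.20 (limma adjusted p = 0.901), that from LinNegSca1Neg 3.67 ± 0.19 (limma adjusted p = 8.5e-11), and the position of 104% became 78.9% with the trend removed.

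Sema3c (chromosome 5, 17574816 to 17730267, mm10), a secreted guidance cue, was the only progenitor marker of these lists called above both fractions. It was at 156, 158, 202 and 154 FPKM in LinNeg, 133, 80.3 and 116 in LinNegSca1Pos and 9.87, 10.4, 19.1 and 18.9 in LinNegSca1Neg. No LinNeg library overlapped either fraction. The log2 difference from LinNegSca1Pos was 0.63 ± 0.23 (limma adjusted p = 0.042), and it was 0.16 (limma adjusted p = 0.69) with the trend removed and lost in 12 of 26 alternatives. Dpp4, a surface peptidase named here after its values were seen, was at 81.5 ± 11.8 FPKM in LinNeg, 55.2 ± 8.02 in LinNegSca1Pos and 7.50 ± 2.47 in LinNegSca1Neg, and its difference from LinNegSca1Pos did not pass (log2 0.55, limma adjusted p = 0.0938).

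Interstitial progenitor markers, of the progenitors between fibres, were mixed. Of 12 tested, 8 were higher and 1 lower than in LinNegSca1Neg (median log2 difference 1.19), and 1 was higher and 1 lower than in LinNegSca1Pos (median 0.01). Gdf10, a TGF-beta family ligand, was at 127 ± 28.4 FPKM in LinNeg and 136 ± 43.6 in LinNegSca1Pos, against 7.51 ± 3.66 in LinNegSca1Neg. Smoc2, a matricellular protein, had the parent between, at 280.4 ± 50.1 FPKM against 502 ± 171 and 53.1 ± 7.23. The 4 members that were at least 4-fold apart had positions from 50.6% to 126%. Of all tested genes 9.31% were higher and 16.5% lower than in LinNegSca1Neg, and 17.1% higher and 15.9% lower than in LinNegSca1Pos. Calls of interstitial markers against LinNegSca1Pos were thus no more frequent than among all genes.

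Markers of cell types of the Sca1- fraction placed the parent far more evenly. The 521 genes higher in LinNegSca1Neg did so as a whole (median 67.1%, 5th to 95th percentile range 52.3% to 77.7%). The evenness is therefore no trait of these markers alone. Of 12 satellite cell markers 10 were higher than in LinNegSca1Pos (median log2 difference 2.60) and 10 lower than in LinNegSca1Neg (median -1.46). Among all tested genes 17.1% were higher than in LinNegSca1Pos and 16.5% lower than in LinNegSca1Neg. For 10 of the satellite cell markers the position ranged from 61.0% to 76.5% with a median of 68.3%. Chodl, a C-type lectin gene of satellite cells, was at 84.7, 93.5, 82.7 and 98.0 FPKM in LinNeg, 2.25, 0.826 and 0.781 in LinNegSca1Pos and 351, 424, 364 and 266 in LinNegSca1Neg. The groups were fully separate. Its log2 differences were 5.37 ± 0.21 (limma adjusted p = 2.2e-11) from LinNegSca1Pos and -1.94 ± 0.19 (limma adjusted p = 6.1e-07) from LinNegSca1Neg, with a position of 74.7%. Myf5, a myogenic transcription factor, had a position of 71.3% and Fgfr4, an FGF receptor, of 66.7%.

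Pax7 (chromosome 4, 139738081 to 139832968, mm10), the defining transcription factor of satellite cells, was at 13.3, 9.53, 3.31 and 2.42 FPKM in LinNeg, 0.115, 0.0476 and 0.0502 in LinNegSca1Pos and 34.8, 19.4, 8.91 and 9.75 in LinNegSca1Neg. Replicates 1 and 2 were higher than 3 and 4 in both LinNeg and LinNegSca1Neg, and the ranges of these groups overlapped, with LinNeg the lower in 4 of 4 libraries of the same number. Its position was 61.0%. The call against LinNegSca1Neg (log2 difference -1.28 ± 0.40, limma adjusted p = 0.0244) was lost in 8 of 26 alternatives, among them without LinNeg replicate 3 (limma adjusted p = 0.0805) or 4 (0.0912) and without LinNegSca1Neg replicate 1 (0.0886) or 2 (0.0642). Under the replicate block its limma adjusted p was 0.00754.

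The genes with the largest differences in favour of LinNegSca1Neg, among those called between without overlap, gave similar positions. Besides Chodl they were Gatm, the first enzyme of creatine synthesis, at 72.5%, Pln, the calcium pump inhibitor phospholamban, at 62.6%, and Gal, the neuropeptide galanin, at 79.0%, together with Plekhb1 at 67.9% and Pcp4l1 at 63.2%. Gatm was at 98.4, 125, 148 and 130.4 FPKM in LinNeg, 12.3, 0.416 and 0.468 in LinNegSca1Pos and 412, 447, 488 and 429 in LinNegSca1Neg. Its low level in the Sca1+ group was highest in replicate 1, as was that of Pln, Plekhb1 and Pcp4l1.

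Pericyte and smooth muscle markers, 14 in all, were higher than in LinNegSca1Pos in 11 cases (median log2 difference 3.22) and lower than in LinNegSca1Neg in 11 (median -1.24), and 10 members had positions of 55.9% to 76.6%. Mylk, myosin light chain kinase, was at 56.3 ± 22.7 FPKM in LinNeg, 2.32 ± 1.34 in LinNegSca1Pos and 132 ± 19.8 in LinNegSca1Neg. Schwann cell markers, 11 tested, were higher than in LinNegSca1Pos in 9 cases and lower in 1 (median 1.93). They were lower than in LinNegSca1Neg in 9 (median -1.39), and 6 had positions of 64.7% to 71.5%. Beside the counts of both lists, 17.1% of all tested genes were higher and 15.9% lower than in LinNegSca1Pos. The share lower than in LinNegSca1Neg was 16.5%.

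Tenocyte markers, 12 tested, had 6 members higher and 1 lower than in LinNegSca1Pos (median log2 difference 1.59) and 9 lower than in LinNegSca1Neg (median -1.71). Their 9 positions ran from 72.7% to 83.4%, and the median of 76.0% was above those of satellite cell, pericyte (64.6%) and Schwann cell (69.0%) markers. Fmod, a collagen-binding proteoglycan of tendon, was at 263 ± 83.6 FPKM in LinNeg, 63.8 ± 15.7 in LinNegSca1Pos and 864 ± 148 in LinNegSca1Neg. Beside the counts of tenocyte markers, 17.1% of all tested genes were higher and 15.9% lower than in LinNegSca1Pos. The share lower than in LinNegSca1Neg was 16.5%.

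Notch pathway genes followed the cells of the Sca1- fraction. Of 13 tested, 9 were higher than in LinNegSca1Pos (median log2 difference 0.94) and 7 lower than in LinNegSca1Neg (median -0.93). None went the other way. Of all tested genes 17.1% were higher than in LinNegSca1Pos and 16.5% lower than in LinNegSca1Neg. The receptor gene Notch3 had a position of 60.9%, and the target genes Nrarp, Hey2 and Heyl had positions of 60.4%, 64.4% and 69.0%. Each of these 4 was called between its fractions, although Nrarp and Hey2 did not pass against LinNegSca1Neg in replicates 3 and 4 alone (limma adjusted p = 0.157 and 0.136).

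All 14 myofibre genes were higher in the parent than in LinNegSca1Pos (median log2 difference 4.02), and 5 were lower than in LinNegSca1Neg (median -1.41). For all tested genes these shares were 17.1% and 16.5%. Myl1, a myosin light chain, was at 357, 458, 2338 and 1080 FPKM in LinNeg, 52.1, 16.6 and 6.42 in LinNegSca1Pos and 958, 945, 7193 and 8558 in LinNegSca1Neg. Replicates 3 and 4 were higher than 1 and 2 in both LinNeg and LinNegSca1Neg. The difference from LinNegSca1Pos was called (log2 5.40, limma adjusted p = 1.7e-04). That from LinNegSca1Neg was not (log2 -1.77, limma adjusted p = 0.114, and 0.0741 with the replicate number as a block). Myl1 was nonetheless lower in LinNeg than in the LinNegSca1Neg library of the same number in 4 of 4 cases. Whether this RNA was carried inside the sorted cells was not tested.

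**Figure D4:**
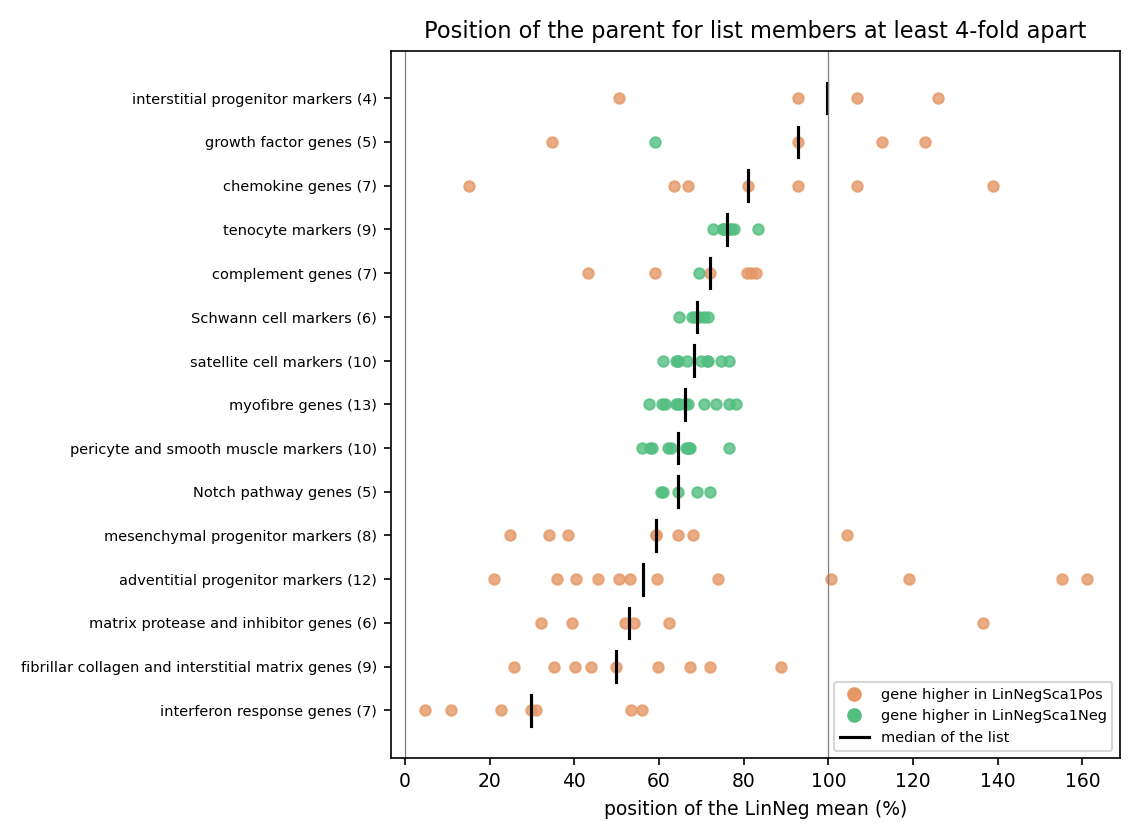
Position of the LinNeg mean (horizontal, %) for members of each gene list that were called apart between the fractions, at least 4-fold apart and at 10 FPKM or more, for lists with 4 or more such members (their number in brackets). Markers of satellite cells, Schwann cells, pericytes and tenocytes cluster between 55.9% and 83.4%, and adventitial progenitor markers run from 21.04% to 161%. Of all 521 genes higher in LinNegSca1Neg, 93.7% lay between 50% and 80%.

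Matrix, complement and chemokine genes, many of them products of fibroblast-like cells, also varied in position. Of 16 fibrillar collagen and interstitial matrix genes 10 were higher than in LinNegSca1Neg and none lower (median log2 difference 1.48), and 6 were lower than in LinNegSca1Pos (median -0.46), with 9 positions of 25.6% to 88.8%. Col5a1 had a position of 40.3% at a GC content of 58.0%, and Fbn1, the fibrillin of microfibrils, 88.8% at 52.3%. Of 11 complement genes 9 were higher and 1 lower than in LinNegSca1Neg (median 2.00). C3, the central complement component, was at 845 ± 162 FPKM in LinNeg, 1029 ± 160 in LinNegSca1Pos and 24.1 ± 3.24 in LinNegSca1Neg. Chemokine genes, 15 tested, were higher than in LinNegSca1Neg in 10 cases (median 1.49) and lower than in LinNegSca1Pos in 2 (median -0.21). For all tested genes these shares were 9.31% and 15.9%.

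Basement membrane genes, 13 tested, were higher than in LinNegSca1Neg in 9 cases and lower in 1 (median log2 difference 0.98), and 1 was higher and 1 lower than in LinNegSca1Pos (median -0.38). Nid1, nidogen, exceeded both means at 399 ± 61.1 FPKM against 303 ± 54.1 and 69.6 ± 7.22, but not significantly so against LinNegSca1Pos (limma adjusted p = 0.111). Matrix protease and inhibitor genes, 13 tested, were higher than in LinNegSca1Neg in 7 cases (median 1.15), and 2 were higher and 3 lower than in LinNegSca1Pos (median -0.65). Growth factor genes, 21 tested, were higher than in LinNegSca1Neg in 10 cases and lower in 3 (median 0.58). Against LinNegSca1Pos 3 were higher and 2 lower (median 0.11). Beside these counts, 9.31% of all tested genes were higher and 16.5% lower than in LinNegSca1Neg. The shares against LinNegSca1Pos were 17.1% higher and 15.9% lower.

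Interferon response genes varied in where the parent lay, with its mean between the fractions for 12 genes and above both for 3. Of 15 interferon response genes 8 were lower than in LinNegSca1Pos and none higher (median log2 difference -0.74). Higher than in LinNegSca1Neg were 8 (median 0.76), and 7 positions ran from 4.62% to 56.1%. Of all tested genes 15.9% were lower than in LinNegSca1Pos and 9.31% higher than in LinNegSca1Neg. Isg15, a ubiquitin-like protein induced by interferon, was at 8.78, 8.71, 3.84 and 1.64 FPKM in LinNeg, 55.7, 16.1 and 36.9 in LinNegSca1Pos and 5.20, 7.22, 1.07 and 3.57 in LinNegSca1Neg. LinNeg lay below all Sca1+ libraries and within the range of the Sca1- libraries or just above it (log2 difference from LinNegSca1Pos -2.49 ± 0.61, limma adjusted p = 0.0044).

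Of 18 ribosomal protein genes 9 were lower than in LinNegSca1Pos and none higher (median -0.81), and none was called against LinNegSca1Neg (limma, median -0.03), with 0 at an unadjusted p under 0.05 and 0 with the replicate number as a block. Their sum was 16533 to 27072 FPKM in LinNegSca1Pos, beside 9893 to 14815 in the parent and 10336 to 16014 in LinNegSca1Neg. Rpl8, of the large subunit, was at 265 ± 71.9, 1002 ± 260 and 237 ± 59.5 FPKM in LinNeg, LinNegSca1Pos and LinNegSca1Neg. Processed copies of such genes could share their reads, and how the authors counted those is not given in the sources used here. The whole list had a median GC content of 51.9%. Beside its counts, 15.9% of all tested genes were lower and 17.1% higher than in LinNegSca1Pos. Against LinNegSca1Neg 9.31% were higher and 16.5% lower.

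Immediate early and stress genes, 20 tested, had 3 members higher and 2 lower than in LinNegSca1Pos (median log2 difference 0.21). The shares of all genes were 17.1% and 15.9%. Against LinNegSca1Neg 4 members were higher and 3 lower (median 0.18), beside 9.31% and 16.5% of all genes. The list took 1.54% to 1.97% of the summed FPKM in LinNeg, 1.15% to 1.45% in LinNegSca1Pos and 1.48% to 2.17% in LinNegSca1Neg. Heat shock protein genes, 12 tested, were lower than in LinNegSca1Neg in 5 cases (median -0.55) and higher than in LinNegSca1Pos in 1 (median 0.09), where 16.5% of all genes were lower than in LinNegSca1Neg. Of 12 cell cycle genes, 10 had a parent mean below both fractions (26.4% of all genes had), with median log2 differences of -0.48 from LinNegSca1Pos and -0.68 from LinNegSca1Neg. In each comparison 1 was called lower, Mcm2 against LinNegSca1Pos (limma adjusted p = 0.0418) and Ccnb1 against LinNegSca1Neg (limma adjusted p = 0.0256). Both calls were lost in several alternatives, 12 of 25 for Mcm2 and 6 of 26 for Ccnb1.

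Markers of the gated-out blood and vessel cells were present at very different levels. Their sums in LinNeg were 174 to 330 FPKM for 12 blood endothelial, 20.7 to 64.9 for 13 macrophage and monocyte and 1.87 to 17.0 for 11 lymphocyte markers. Neutrophil markers summed to 59.3 to 1123 FPKM and erythroid genes to 346 to 7678 FPKM in LinNeg, the latter up to 1.68% of the summed FPKM there, beside at most 0.350% in LinNegSca1Pos and 1.69% in LinNegSca1Neg. Blood endothelial markers were lower than in LinNegSca1Neg in 3 cases and higher in 1, and lymphocyte markers lower in 4. The endothelial marker that was higher was Tek, an angiopoietin receptor, at 48.6 ± 9.49 FPKM in LinNeg, 43.7 ± 7.50 in LinNegSca1Pos and 6.99 ± 1.11 in LinNegSca1Neg. Macrophage markers were lower than in LinNegSca1Pos in 4 cases. C1qa, a complement C1q chain of macrophages, was at 0.0506 to 0.126 FPKM in LinNeg and at 13.9, 0.494 and 1.98 in LinNegSca1Pos. Its Sca1+ mean thus rested largely on replicate 1. Of 10 neutrophil markers and 5 erythroid genes none was called by limma in either comparison. At an unadjusted p under 0.05, 3 neutrophil markers differed from LinNegSca1Pos and none of the others did, and the same number was called higher with the replicate number as a block. Of 7 adipocyte genes 1 was lower than in LinNegSca1Pos and 1 lower than in LinNegSca1Neg. Among all tested genes 15.9% were lower than in LinNegSca1Pos and 16.5% lower than in LinNegSca1Neg.

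The 70 genes above both fractions were mostly small differences. The smaller of the pair of log2 differences ranged from 0.27 to 2.79 with a median of 0.55, and 10 genes were at least 2-fold above both. Counted within these 70 genes alone and not over all tested genes, 50 had no LinNeg library overlapping either fraction. Arhgap20 (chromosome 9, 51765352 to 51853059, mm10), a GTPase-activating protein, led those at 10 FPKM or more without overlap, of which the 10 with the largest differences are named. It was at 20.6, 14.3, 19.5 and 18.6 FPKM in LinNeg, 8.63, 8.98 and 3.74 in LinNegSca1Pos and 2.52, 1.72, 2.28 and 3.64 in LinNegSca1Neg. Every LinNeg library was above every library of both fractions. The log2 differences were 1.31 ± 0.23 (limma adjusted p = 3.9e-04) and 2.46 ± 0.21 (limma adjusted p = 1.1e-07), and they held in all 26 alternatives, the removal of the trend included (0.86, limma adjusted p = 0.00601).

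Maob (chromosome X, 16709281 to 16817366, mm10), monoamine oxidase B of the outer mitochondrial membrane, was at 22.9, 27.0, 28.7 and 34.5 FPKM in LinNeg, 15.6, 17.8 and 13.9 in LinNegSca1Pos and 9.998, 9.92, 11.9 and 12.4 in LinNegSca1Neg. No libraries overlapped. Its log2 differences of 0.80 ± 0.18 (limma adjusted p = 0.00284) and 1.27 ± 0.17 (limma adjusted p = 1.9e-05) also held in all 26 alternatives.

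Klf3, a transcriptional repressor of the Krüppel-like family, was at 28.5, 21.7, 30.5 and 36.3 FPKM in LinNeg, 14.4, 17.5 and 6.11 in LinNegSca1Pos and 9.43, 5.71, 14.2 and 17.6 in LinNegSca1Neg. The fractions overlapped each other and neither reached the parent. The difference from LinNegSca1Pos was 1.24 ± 0.34 (limma adjusted p = 0.00921), and without LinNegSca1Pos replicate 3 it was 0.82 (limma adjusted p = 0.0827). Creb5, a transcription factor of the CREB family, C1galt1, which extends O-linked glycans, Adamtsl3, an ADAMTS-like matrix protein, Golim4 of the Golgi, Abca1, a cholesterol exporter, Smurf2, a ubiquitin ligase of TGF-beta signalling, and Cdon, a cell surface co-receptor for hedgehog, were the others named by this rule. With the trend removed none of these 7, nor Klf3, passed against LinNegSca1Pos (limma adjusted p of 0.0635 to 0.373). Among the growth factors Tgfb2 was called above both, at 19.6 ± 3.86 FPKM against 12.6 ± 2.01 and 13.1 ± 2.41. Each of its calls was lost in 7 of 26 alternatives, that against LinNegSca1Pos without LinNeg replicate 4 or LinNegSca1Pos replicate 2 or 3 (limma adjusted p of 0.0646 to 0.0965) and that against LinNegSca1Neg without LinNeg replicate 3 or 4 or LinNegSca1Neg replicate 1 or 2 (limma adjusted p of 0.0544 to 0.0929). It had a limma adjusted p of 0.326 against LinNegSca1Pos once the trend was removed.

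Without LinNegSca1Pos replicate 3, the shallowest library, 24 genes were above both, 22 of them among the 70, and 1582 in place of 2407 were higher than in LinNegSca1Pos. The libraries of LinNeg and LinNegSca1Neg fall into replicates 1 and 2 (set A) and 3 and 4 (set B), known to stand apart from earlier results although the labels name no batch. Set A alone gave 120 genes above and 64 below both, set B alone 54 and 94. Of the 70 genes above both, 19 were called in each set, and of the 75 below both, 5. Both sets kept the same 3 LinNegSca1Pos libraries, so they are not independent in the comparison with that fraction.

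The 75 genes below both fractions were led by H19 (chromosome 7, 142575532 to 142578146, mm10), an imprinted non-coding RNA expressed from the maternal copy. It was at 17.3, 16.3, 21.5 and 17.3 FPKM in LinNeg, 72.8, 102 and 103 in LinNegSca1Pos and 26.5, 46.1, 63.3 and 35.03 in LinNegSca1Neg. Every LinNeg library was below every library of both fractions. The log2 differences were -2.28 ± 0.23 (limma adjusted p = 1.8e-06) and -1.13 ± 0.21 (limma adjusted p = 6.4e-04), and with the trend removed -1.89 and -1.08. They held in all 26 alternatives. Across the 75 genes the smaller of the pair of differences had a median size of 0.53 and a largest of 1.13, and 2 genes were at least 2-fold below both. Counted within the 75 alone and not over all tested genes, 47 did not overlap.

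Of the genes at 10 FPKM or more without overlap, H19 was followed by Atp5g1 and Nop16, and Ndufs8 and Mrpl12 were also named. Over all 75 the next after H19 was Cdc20, an activator of the anaphase-promoting complex, given here after its values were seen, at 1.70 to 2.09 FPKM in LinNeg, 2.77 to 10.4 in LinNegSca1Pos and 3.94 to 6.25 in LinNegSca1Neg. It was the other gene 2-fold below both. Mrpl12, a protein of the mitochondrial ribosome, was at 13.9, 17.8, 17.1 and 14.6 FPKM in LinNeg, 30.6, 33.3 and 51.9 in LinNegSca1Pos and 21.6, 31.5, 27.3 and 25.4 in LinNegSca1Neg. All LinNeg libraries were below all others (log2 differences -1.20 ± 0.18, limma adjusted p = 8.6e-05, and -0.70 ± 0.16, limma adjusted p = 0.00379), although the latter was lost in 2 of 26 alternatives. Ndufs8, a subunit of respiratory complex I, was at 24.3, 29.1, 22.2 and 15.0 FPKM in LinNeg, 40.0, 47.9 and 54.4 in LinNegSca1Pos and 33.5, 49.6, 30.9 and 35.7 in LinNegSca1Neg. It was lost against LinNegSca1Neg without LinNeg replicate 4 (limma adjusted p = 0.0892) or LinNegSca1Neg replicate 2 (0.0851).

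Atp5g1, which encodes subunit c of ATP synthase as do its paralogs Atp5g2 and Atp5g3, was at 49.5, 55.7, 72.0 and 44.2 FPKM in LinNeg, 89.0, 95.5 and 116 in LinNegSca1Pos and 82.0, 89.8, 157 and 137 in LinNegSca1Neg. The LinNeg libraries lay below all others. Its difference from LinNegSca1Pos, -0.86 ± 0.25 (limma adjusted p = 0.0129), was lost without LinNegSca1Pos replicate 3 (limma adjusted p = 0.0667). Nop16, a ribosome biogenesis protein of the nucleolus, was at 6.73, 8.63, 6.92 and 5.95 FPKM in LinNeg, 10.7, 12.5 and 14.7 in LinNegSca1Pos and 11.2, 17.4, 10.7 and 11.2 in LinNegSca1Neg. It kept both calls in all 26 alternatives. These 5 genes were also called below both with the trend removed. Gar1, Prmt1, Rtkn and Rcc2, taken by the same rule, were not, with limma adjusted p of 0.105 to 0.928 against LinNegSca1Pos.

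**Figure D5:**
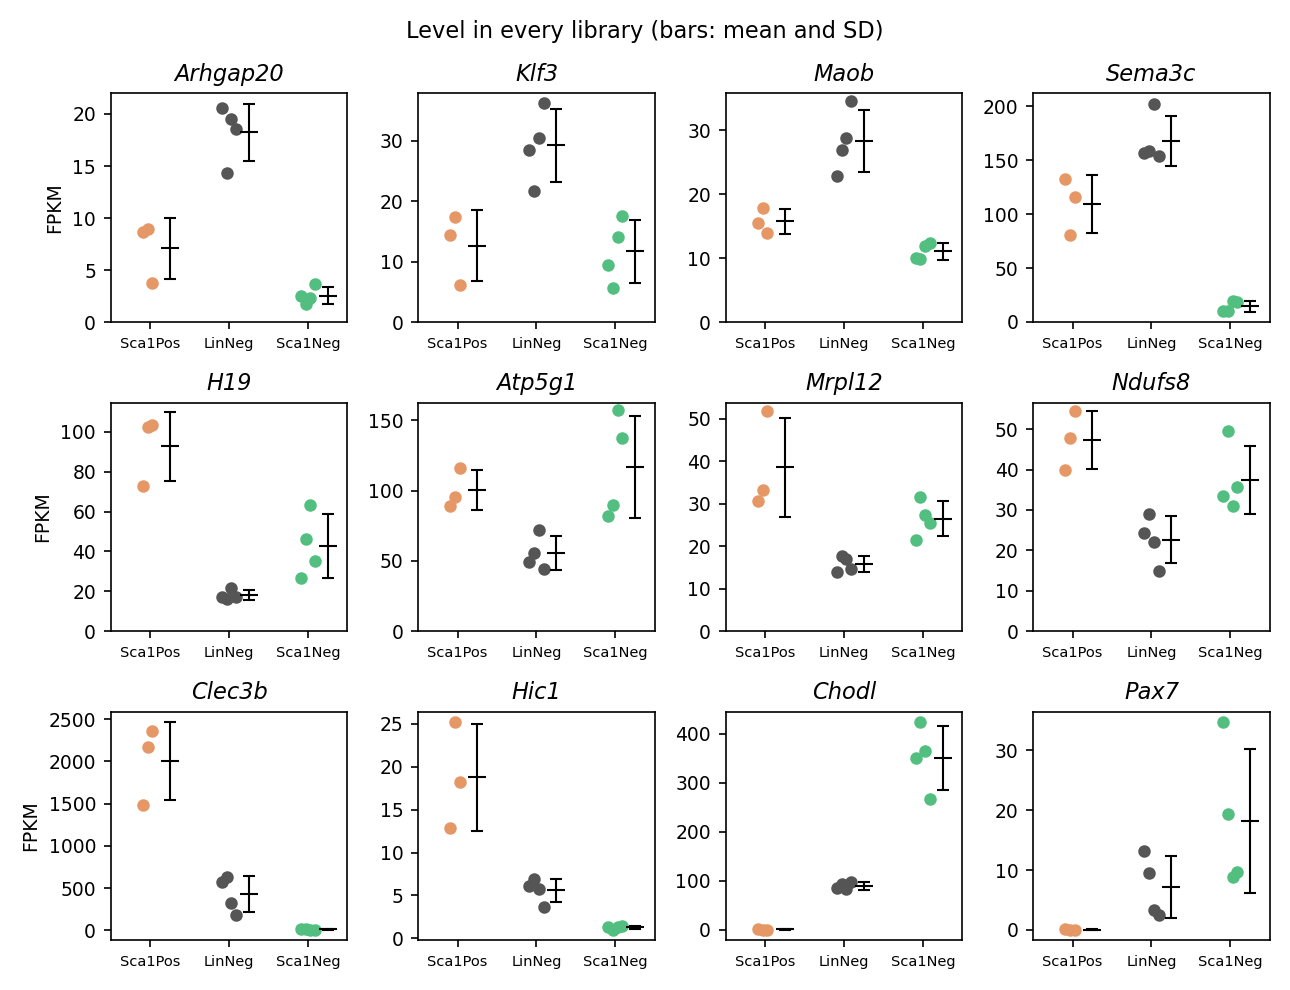
FPKM in every library (points) with the mean and SD beside them, for genes above both fractions (top row), below both (middle row) and between (bottom row). In the top row every LinNeg point lies above all points of the fractions, in the middle row below them, and Chodl and Clec3b show the parent between fractions that do not overlap.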

How the data were processed

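Per the labels, RNA of flow-sorted cells was made into stranded poly(A) libraries. The authors deposited 1 table of FPKM per gene. The submitters' processing notes name Cufflinks, Bowtie2, TopHat2 and bcl2fastq, and mm10 as the build. Versions, roles and annotation: not given in the sources used here. The deposited table holds other entries beside numbers, the status words LOWDATA, FAIL and HIDATA. Of 23846 entries 325 held such words in some or all libraries and were left out, and 4 columns that matched no sample were not used. The lowest listed value was 0.001. Because these are not counts, no count model was used, and the depth is unknown apart from the relative estimate given above.

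The scale was log2(FPKM + 1), on which changes of low genes are understated. Tested were genes reaching 1 FPKM in 3 or more of the 19 libraries, using limma 3.58.1 in R 4.3.3 (1 fit of 5 groups, two-sided, empirical Bayes moderation allowing a variance trend, 14 residual degrees of freedom), with Benjamini-Hochberg adjustment over 14043 genes and a threshold of 0.05. The fit was tested on simulated data. A gene was above, below or between where both parent comparisons passed. Positions were computed from mean FPKM with Python 3.11.15, numpy 2.4.6, pandas 2.3.3 and scipy 1.17.1, and drawn with matplotlib 3.10.9. The members and the 28 lists were chosen with earlier results of these data known. Named were Ly6a, Pdgfra, Hic1, Pax7, Pecam1 and Ptprc, the 10 genes above and the 10 below both for which the smaller of the log2 differences was largest, and the 6 genes called between with the largest difference of the fractions in each direction, all at 10 FPKM or more without overlap. Of each list, up to 4 called members with the largest differences were taken, and any called above or below both. Symbols listed more than once were not named, and not every gene taken is described.

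The alternatives covered the pseudocount (0.1, 5), the filter (none, 5 FPKM), median-of-ratios and quantile scaling, a fit of 3 groups, no variance trend, sample weights, the replicate number as a block, sets A and B alone, leaving out each library, and for positions 2-fold and 8-fold differences. Added after seeing the data were the removal of each library's trend with GC content and log length (natural splines with 4 degrees of freedom each, GENCODE M21), the same with the block, and an uncorrected fit of the genes with a GC content. Deviations of same-numbered LinNeg and LinNegSca1Neg libraries from the mean of their group had correlations of 0.775, 0.613, 0.553 and 0.572 across genes. The own number gave the highest in 2 of the 4, while LinNegSca1Neg replicate 3 went best with LinNeg replicate 4 and replicate 4 with 3. The numbers thus match these groups by set (A or B), and pairing by number within set B is not settled. This is read from the data and not from a label. LinNegSca1Pos libraries, at -0.00787, -0.097 and 0.158, were not paired with LinNeg.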

Additional observations from a re-analysis of the deposited data

Results flagged for a closer look

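In 9 of 256 groups of 4 libraries checked among 128 named genes, 1 library stood apart from the other 3 by a gap above Dixon's 95% critical value, where chance alone flags about 1 in 20. Among tenocyte markers, Kera reached 255 FPKM in LinNeg replicate 4 against 63.4 to 82.8 in the others, and Chad 186 against 59.6 to 80.2 in the same library. Adamts5, a matrix protease, had its lowest value there, 81.0 FPKM against 85.7 to 86.3. In LinNeg replicate 3, Sema3c was at 202 FPKM against 154 to 158, and Cd79b, a B cell receptor chain, at 5.69 against 0.225 to 1.07. In LinNegSca1Neg replicate 2, 4 genes were high. Nop16 was at 17.4 FPKM against 10.7 to 11.2 and Mmp3, stromelysin, at 8.00 against 2.43 to 2.96. Usp18, a protease of the interferon response, was at 2.01 FPKM against 0.928 to 1.08, and Cd14, a monocyte receptor, at 3.29 against 0.934 to 1.17.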

How the results depend on the processing

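The limits are the 3 LinNegSca1Pos libraries, 1 of them shallow, and the trend with GC content that separates these from LinNeg and LinNegSca1Neg libraries. The depth is also unknown, so small differences of low genes may not have been detectable. No named result reversed. Over 192 results of named genes and 26 alternatives, 4589 of 4988 values kept their call and 399 lost it, most often in set B alone (40) and without LinNeg replicate 4 (28), and 118 results held throughout.

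Counts of genes above both fractions (70) moved to 132 under quantile normalization, 46 in the fit of 3 groups, 120 in set A alone and 17 with the trend removed, and ranged from 24 to 73 when single libraries were left out. Those below both (75) moved to 37 under median-of-ratios scaling, 38 under quantile normalization, 35 in the fit of 3 groups and 24 with the trend removed, and ranged from 31 (without LinNeg replicate 4) to 94, with 42 without LinNegSca1Neg replicate 2 and 49 without LinNeg replicate 1. Genes higher than in LinNegSca1Pos (2407) were 1323 with the trend removed and 1582 to 2422 with single libraries left out. In set B alone 1383 genes were lower than in LinNegSca1Neg (2324) and 784 were between and higher in LinNegSca1Neg (1184). The cause was not tested.

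The share of genes at least 4-fold apart with the parent below both (1.03%) was 6.01% at 2-fold, 0.633% at 8-fold and 4.07% in set B alone, and ranged from 0.898% to 1.75% with single libraries left out (1.75% without LinNeg replicate 1, 1.58% without replicate 2). The median position of genes higher in LinNegSca1Pos (41.7%) was 26.5% at 2-fold, 53.4% at 8-fold, 21.9% in set B alone and 57.7% with the trend removed and the genes chosen again, and that of genes higher in LinNegSca1Neg (67.1%) was 62.9% at 2-fold.

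The block was set by replicate number in all groups, so it also joined LinNegSca1Pos libraries to LinNeg libraries of the same number. Their deviations had correlations of -0.00787, -0.097 and 0.158, so block results against LinNegSca1Pos rest on a pairing the values do not show. With the replicate block 101 genes were above both, 90 below both, and 444 and 1300 between, and no count moved by over 1.5 times. The block together with the removal of the trend gave 20 above, 33 below and 1395 higher than in LinNegSca1Pos. Within the lists, calls higher than in LinNegSca1Pos rose from 0 to 3 for neutrophil markers and from 3 to 6 for immediate early genes, and calls lower from 1 to 4 for basement membrane genes. Of the named genes 4 calls against LinNegSca1Pos were gained (Cd79b, Mmp3, Cfb and Cycs) and 3 calls were lost under the block: Rtkn and Fgf10 against LinNegSca1Pos (limma adjusted p = 0.0524 and 0.0764) and Acta2 against LinNegSca1Neg (limma adjusted p = 0.0506).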

Other observations

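Several genes with large values above both fractions were left out of the named ones because single libraries overlapped, and they are given here after their values were seen. Sult1e1, an estrogen sulfotransferase, was at 12.04, 22.5, 20.3 and 28.2 FPKM in LinNeg and at 0.242 to 0.938 in LinNegSca1Neg, while in LinNegSca1Pos it was listed at the lowest value of the table, 0.001, in replicates 1 and 3 and at 26.5 in replicate 2. C7, a complement component of the membrane attack complex, was at 425, 337, 138 and 153 FPKM in LinNeg, 39.6, 324 and 6.95 in LinNegSca1Pos and 3.62 to 8.61 in LinNegSca1Neg. Il1rl2, a receptor of the interleukin-36 family, was at 40.8, 24.4, 16.1 and 18.5 FPKM in LinNeg and 12.9, 21.6 and 2.18 in LinNegSca1Pos. Tdo2, tryptophan dioxygenase, was at 8.77 to 13.7 FPKM in LinNeg and 3.73, 10.1 and 0.972 in LinNegSca1Pos. In all 4 genes LinNegSca1Pos replicate 2 was within or near the range of the parent and replicates 1 and 3 were lower.

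The 75 genes below both fractions held 13 of the 186 tested genes whose symbols begin with the names of mitochondrial ribosomal proteins, import subunits and respiratory chain subunits (Mrpl, Mrps, Timm, Tomm, Nduf, Atp5 and Cox), a share of 6.99% beside 0.534% of all genes. None of the 186 was above both. The parent mean was below both fractions for 119 of them (64.0%, beside 26.4% of all genes), and their median log2 differences were -0.28 from LinNegSca1Pos and -0.51 from LinNegSca1Neg, at a median GC content of 49.9%. With the trend removed 5 of the 13 were still below both. The group was formed after the values were seen and carries no test. Of 18 respiratory chain genes in the list used above, 10 were lower than in LinNegSca1Neg (median log2 difference -0.75). Against LinNegSca1Pos 2 were lower and 1 higher (median 0.03). Among all tested genes 16.5% were lower than in LinNegSca1Neg, and 15.9% lower and 17.1% higher than in LinNegSca1Pos.

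Among 7 tested class 3 semaphorins, secreted guidance cues, Sema3c, Sema3d and Sema3e were called above both fractions, beside 0.498% of all genes, and this group too was formed after the values were seen. The other 4 had lower means in the parent than in LinNegSca1Neg, called for Sema3a (log2 difference -0.84, limma adjusted p = 0.00759) and Sema3f (-0.72, limma adjusted p = 0.0202), and the median of the 7 against LinNegSca1Neg was -0.40. Sema3e was at 3.71 FPKM in LinNeg, 1.23 in LinNegSca1Pos and 1.85 in LinNegSca1Neg and was still above both with the trend removed, which Sema3c and Sema3d were not.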
